A study of Mus musculus with 6 samples.

Results

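Tnf and 7 genes that set how long inflammatory mRNAs last (Zfp36, Zfp36l1, Zfp36l2, Zc3h12a, Rc3h1, Dusp1 and Elavl1) were taken by gene symbol from a table of read counts in sorted Kupffer cells, which are macrophages that reside in the liver. All 8 symbols were found among 15458 rows, and all 8 were among the 13120 genes with enough counts to be tested. Flow cytometry was used to collect the cells from wild-type C57BL/6 mice on day 18 after implantation of Hepa1-6 cells, a hepatoma line from mouse. In the KC_EV group the tumour cells held an empty vector, and in the KC_Epo group they overexpressed erythropoietin, so both groups bore tumours and no tumour-free liver was compared. There were 3 libraries in each group, numbered within it. No label ties each library to its own animal, and the p-values below measure only the spread between these libraries, which may be technical. The labels used here do not give the age of the mice or say whether the overexpressing line was 1 clone. The 8 genes were selected on their counts in these libraries, that is, with the fold changes between KC_Epo and KC_EV known, so their differences between the groups are given as a description, with no test.

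TNF is the cytokine that activated macrophages release early, and its mRNA is short-lived. Tristetraprolin, the product of Zfp36, and its relatives from Zfp36l1 and Zfp36l2 bind AU-rich elements in the 3′ untranslated region (UTR) of such mRNAs and bring in the CCR4-NOT complex, which removes the poly(A) tail. Roquin-1 (Rc3h1) binds a stem-loop, and Regnase-1 (Zc3h12a) cuts mRNAs at stem-loops, while HuR (Elavl1) binds AU-rich elements and protects the message. The kinases p38 and MK2 phosphorylate tristetraprolin and hold back its decay activity. DUSP1 is the phosphatase that switches p38 and JNK off.

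The elements that these proteins read are shown first, because most of the 8 genes carry one in their own mRNA. The sites were read from GENCODE vM21 transcripts (GRCm38), 1 protein-coding transcript per gene, with T written for U. Capitals mark the AU-rich nonamer TTATTTATT, and in the last line the letters TTCTGTGAA of the Tnf decay stem-loop that Roquin binds. In Tnf the nonamers overlap, whereas the Zfp36 and Dusp1 sites hold 1 each.
Tnf, bases 437 to 466 after the stop codon: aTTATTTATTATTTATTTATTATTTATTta
Zfp36, bases 576 to 605: atttatgacgactTTATTTATTgtattaag
Dusp1, bases 92 to 121: ggagctggtccTTATTTATTtaacaccccc
Elavl1, bases 3793 to 3822: aTTATTTATTTATTTATTTATTtttattta
Tnf stem-loop, bases 542 to 564: acatgttTTCTGTGAAaacggag

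Of the 8 genes, 7 had at least 1 nonamer in the 3′ UTR, the exception being Zc3h12a with 0. Tnf had 5 nonamers and 8 copies of the shorter pentamer ATTTA, which lies inside each nonamer, in a 3′ UTR of 764 bases. Among 1546 tested genes whose 3′ UTR was within 20% of that length, 4.72% had a nonamer and 0.0647% had as many as Tnf. Elavl1, which encodes the protective factor, had 8 nonamers in 4218 bases, and 0.119% of 842 genes of like length had as many. Dusp1 had 2 in 690 bases, and 0.528% of 1516 genes of like length had as many. Zfp36, Zfp36l1, Zfp36l2 and Rc3h1 had 1 each, in 774, 1835, 1822 and 7181 bases. The letters TTCTGTGAA occurred 1 time in Tnf and 2 times in Rc3h1 and were found in 1.68% and 13.8% of genes of like 3′ UTR length. All these shares count the gene itself, which alone makes up the share with as many nonamers for Tnf and for Elavl1. The nonamer and stem-loop letters were searched on the transcript strand only, and a match is a description of letters, not a measured site.

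Depth ran from 23201076 to 33280754 counts per library. Reads of Epo itself numbered 29, 44 and 21 in KC_Epo 1 to 3, and 0 in every library of KC_EV. The Kupffer cell label was checked with 14 markers, all present in every group: their summed level was 28924 to 31515 CPM (counts divided by library size, scaled with trimmed mean of M values factors, TMM) in KC_EV and 45655 to 49142 CPM in KC_Epo. By edgeR's quasi-likelihood test with Benjamini-Hochberg adjustment at 0.05, 10 of the 14 rose and 1, Adgre1, fell. Of all genes tested, 32.3% passed that threshold, 16.9% as higher and 15.4% as lower in KC_Epo, and the count without KC_Epo 3 was 2728 in place of 4234. Libraries also held transcripts of other cells: hepatocyte markers summed to 2525 to 3149 CPM in KC_EV and to 20253, 5805 and 12025 CPM in KC_Epo 1 to 3. Sinusoidal endothelial markers summed to 4441 to 5403 CPM in KC_EV against 1612 to 2551 CPM in KC_Epo. Erythroid markers rose in 7 of 8 cases, from sums of 33.6 to 43.4 CPM to sums of 606 to 1109 CPM. In such bulk samples, fewer cells of a type and less RNA per cell cannot be told apart.

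Tnf was the member with the largest difference. Its level was 158, 139.6 and 143 CPM in KC_EV 1 to 3 and 46.7, 48.5 and 49.4 CPM in KC_Epo 1 to 3. All 3 KC_Epo libraries lay far below the lowest KC_EV library, and close to each other. The log2 fold change was -1.61 ± 0.07 (SE, edgeR), a level 3.04-fold lower in KC_Epo.

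Zfp36, which encodes tristetraprolin, stood on the other side. It was at 1168, 1287 and 1289 CPM in KC_EV, against 2278, 2690 and 2381 CPM in KC_Epo, a log2 fold change of 0.97 ± 0.09 and a 1.96-fold higher level. The lowest KC_Epo library was far above the highest KC_EV library. The ratio of Zfp36 to Tnf counts within a library does not depend on library scaling, and it was 7.41, 9.22 and 9.03 in KC_EV against 48.7, 55.5 and 48.2 in KC_Epo. The ratio of Dusp1 to Tnf moved the same way, from 3.67, 4.40 and 4.36 to 16.5, 15.8 and 15.3. With Elavl1, the member whose KC_Epo libraries fell inside the KC_EV range, as the reference, the ratio to Tnf was 0.687, 0.679 and 0.687 in KC_EV against 2.24, 2.21 and 2.14 in KC_Epo. All 3 ratios have Tnf as the denominator, so they are not 3 separate results. Tnf was selected with its fold change known, and nothing is read from the separation of the ratios between the groups. The share of all genes whose ratio to Tnf would not overlap was not counted.

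The relatives of Zfp36 differed less. Zfp36l1 was at 253, 251 and 235 CPM in KC_EV, against 271, 344 and 308 CPM in KC_Epo, with a log2 fold change of 0.32 ± 0.09. The groups were separate, but the KC_Epo libraries spread over a wider range than the gap to KC_EV, with a coefficient of variation of 11.9% against 4.02% in KC_EV. Zfp36l2 was at 225, 219 and 202 CPM in KC_EV, against 203, 239.9 and 229 CPM in KC_Epo. Its groups overlapped, and its log2 fold change of 0.055 ± 0.08 turned to -0.0072 with upper-quartile factors and to -0.11 with library sizes only. In KC_Epo each of the 3 Zfp36 family genes was lowest in library 1 and highest in library 2. The hepatocyte sum had the opposite order, highest in library 1 and lowest in library 2, and its part in these levels was not tested.

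Both stem-loop factors were lower in KC_Epo. Zc3h12a, the endonuclease Regnase-1, was at 42.9, 42.2 and 46.1 CPM in KC_EV, against 29.6, 33.2 and 31.6 CPM in KC_Epo, with a log2 fold change of -0.47 ± 0.08. Rc3h1, Roquin-1, was at 55.6, 50.1 and 49.3 CPM in KC_EV, against 40.3, 45.6 and 40.6 CPM in KC_Epo, with a log2 fold change of -0.29 ± 0.08. The groups did not overlap for either gene, although for Rc3h1 the highest KC_Epo library came close to the lowest KC_EV library.

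Dusp1, the phosphatase acting on p38 and JNK, was at 578, 615 and 622 CPM in KC_EV, against 772, 767 and 755 CPM in KC_Epo. That is a log2 fold change of 0.34 ± 0.07, and the KC_Epo libraries were close together, with a coefficient of variation of 1.14%. Elavl1, which encodes HuR, was at 108, 94.8 and 98.1 CPM in KC_EV, against 105, 107 and 106 CPM in KC_Epo. The KC_Epo libraries fell inside the KC_EV range, and the log2 fold change of 0.078 ± 0.07 turned to -0.081 with library sizes only.

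**Figure D1:**
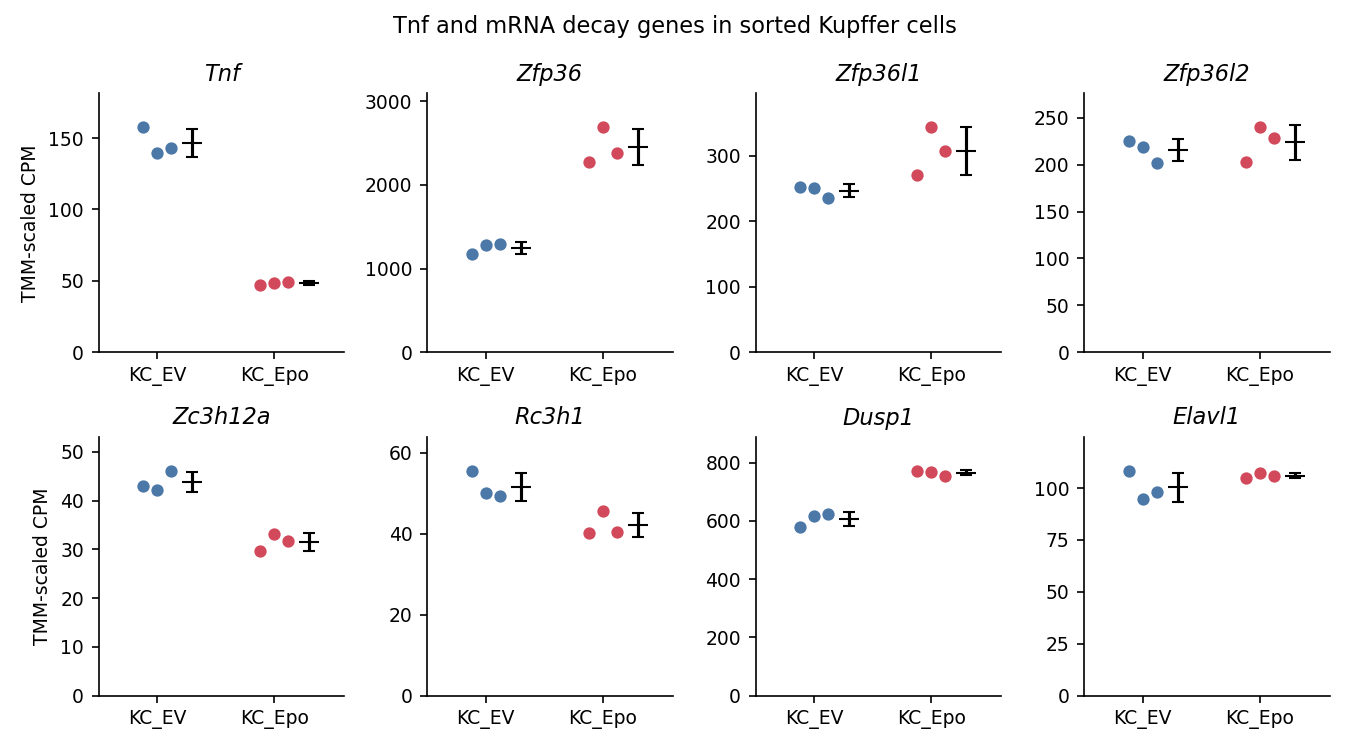
TMM-scaled CPM of the 8 genes in each library (points; blue KC_EV, red KC_Epo; libraries 1 to 3 from left to right) with the mean and SD of each group of 3 (black); the vertical axes start at 0 and differ between panels. Tnf, Zc3h12a and Rc3h1 were lower and Zfp36, Zfp36l1 and Dusp1 higher in KC_Epo with no overlap, while Zfp36l2 and Elavl1 overlapped.

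Counted in the test across all genes, 3 of the 8 were past the threshold as higher, 3 as lower and 2 in neither direction, where 32.3% of all genes tested passed. The groups did not overlap for 6 of the 8, against 48.3% of all genes tested. The choice of the genes used this contrast, so nothing is read from these counts, nor from a member passing or not passing in the settings that follow. Over 16 other settings Tnf ran from -1.76 to -1.55, Zfp36 from 0.81 to 1.03, Dusp1 from 0.18 to 0.36 and Zc3h12a from -0.63 to -0.43. Zfp36l1 was not past the threshold with library sizes only (0.16) or without KC_EV 3 (0.29) or KC_Epo 3 (0.33), nor was Rc3h1 without KC_EV 1 (-0.23), KC_Epo 1 (-0.25) or KC_Epo 3 (-0.26). Within KC_EV each of the 8 genes varied less than the median gene: coefficients of variation ran from 3.92 to 7.02% among KC_EV libraries and from 1.05 to 11.9% among KC_Epo libraries, where the median of 10387 genes at 5 CPM or more was 7.31 and 7.59%.

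Set on a scale of CPM per kilobase of exon, the 8 genes covered a wide range. In KC_EV the order was Zfp36 at 359.7 ± 19.9, Dusp1 at 255 ± 9.996, Tnf at 89.5 ± 5.86, Zfp36l1 at 82.4 ± 3.32, Zfp36l2 at 61.1 ± 3.37, Elavl1 at 17.3 ± 1.21, Zc3h12a at 15.9 ± 0.75 and Rc3h1 at 4.69 ± 0.31 CPM per kilobase (SD, n = 3). Elavl1 and Zc3h12a overlapped between libraries there, and the other neighbours did not. Zfp36 was above 98.8% of 13030 tested genes on this scale and Dusp1 above 98.2%. In KC_Epo, Tnf at 29.4 ± 0.84 CPM per kilobase stood below Zfp36l1 and Zfp36l2, at 103 ± 12.2 and 63.4 ± 5.31, and no neighbours overlapped. Tnf went from above 94.3% to above 80.9% of the tested genes. Exon lengths came from the GENCODE vM21 basic set, which is not the annotation of the authors' build, so levels between genes are approximate.

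**Figure D2:**
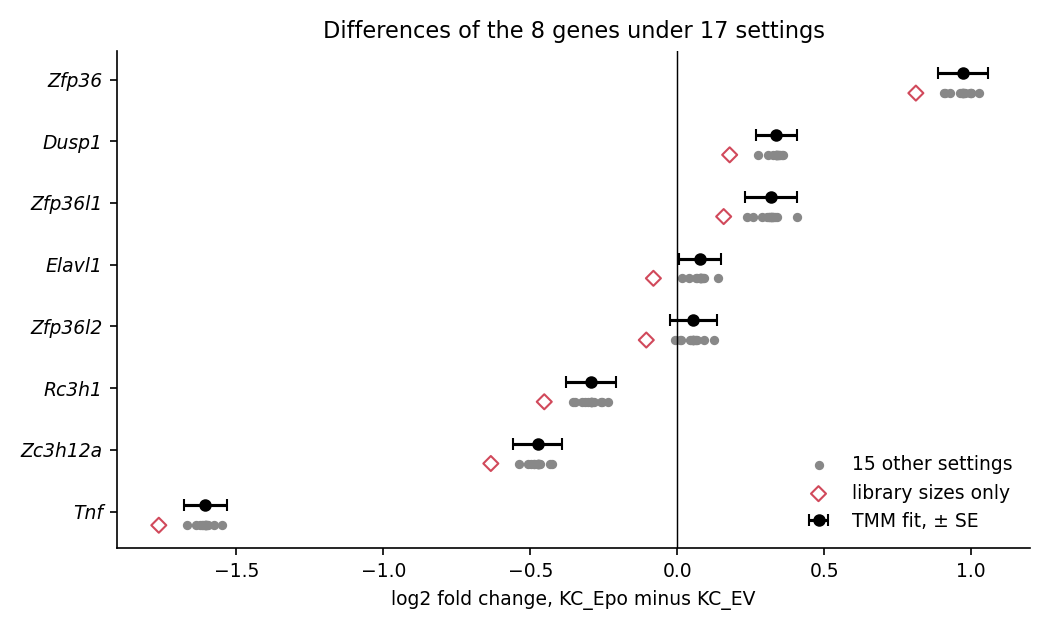
Log2 fold change (KC_Epo minus KC_EV, horizontal axis) of each gene with its SE (black, edgeR with TMM factors), under library sizes only (open red diamonds) and under 15 other settings (grey). Zfp36l2 and Elavl1 lie on either side of 0, and the other 6 genes stay on 1 side in the 17 settings drawn.

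The promoters of Zfp36 and Dusp1, the pair of regulators that was higher in abundance per kilobase than all other members, were read for known letters. The 250 bases before the start are given 5′ to 3′ from RefSeq (GRCm38.p6, minus strand; the counts were made on GRCm39), with every match in capitals.
Zfp36, chr7:28379229-28379478: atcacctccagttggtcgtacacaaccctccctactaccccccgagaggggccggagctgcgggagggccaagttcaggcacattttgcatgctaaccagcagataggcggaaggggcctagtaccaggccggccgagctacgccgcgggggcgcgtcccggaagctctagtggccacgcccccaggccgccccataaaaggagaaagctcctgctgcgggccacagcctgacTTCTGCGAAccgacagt
Dusp1, chr17:26508473-26508722: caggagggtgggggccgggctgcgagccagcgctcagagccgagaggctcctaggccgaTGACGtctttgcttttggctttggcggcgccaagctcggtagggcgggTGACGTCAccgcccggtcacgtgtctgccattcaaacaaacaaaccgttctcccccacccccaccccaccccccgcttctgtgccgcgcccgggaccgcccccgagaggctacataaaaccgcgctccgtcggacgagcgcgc

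Zfp36 held 1 match to TTCNNNGAA, the letters that STAT proteins bind, at 17 to 9 bases before the start, and 7.02% of 32851 promoters of that length held one. Dusp1 held 1 copy of TGACGTCA, the cyclic AMP response element, at 143 to 136 bases before the start, which 1.55% of promoters held. Its core TGACG occurred 3 times, 2 of them inside that element on opposite strands, and 17.8% of promoters held the core. Tnf and Zfp36l1 each had TATAAA at 29 to 24 bases before the start, found in 12.4% of promoters. Zfp36l1 and Rc3h1 each had 1 match to TGANTCA, bound by AP-1, which 6.75% held. None of the 7 members with an entry held GCGTGGGCG for EGR proteins or AGAACA for the glucocorticoid receptor. These were in 0.536 and 16.1% of promoters. For NF-kB and for the serum response element only 1 fixed pattern each was searched. Neither pattern was in any of the 7, and 1.41 and 0.14% of promoters held them. Other forms of these elements were not searched, so their absence is not shown. Both strands were searched, and no match says only that the letters searched are not in this window.

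The machinery that carries out the decay was counted list by list, and these counts depended on the scaling. Of 18 deadenylation genes tested, 0 rose and 2 fell (7 fell with library sizes only), and the list's median log2 fold change was -0.028 against -0.0045 for all genes. Both that fell encode anti-proliferative adaptors of the deadenylase complex. Btg2 went from 242, 264 and 267 CPM in KC_EV to 170.5, 186 and 174 CPM in KC_Epo, a log2 fold change of -0.55 ± 0.07 (edgeR adjusted p = 0.000169), and Tob1 was at -0.58 ± 0.11 (edgeR adjusted p = 0.00192). Every CCR4-NOT subunit tested lay between -0.12 and 0.11. Of 16 decapping and 5′ to 3′ decay genes, 1 rose and 0 fell (0 and 5 with library sizes only, 0 and 1 with upper-quartile factors). It was Upf1, a helicase of nonsense-mediated decay, at 0.23 ± 0.07 (edgeR adjusted p = 0.0316), which did not pass without KC_EV 1, KC_EV 2, KC_EV 3 or KC_Epo 3 (0.18 to 0.26), with upper-quartile factors (0.17) or with library sizes only (0.071). Of these 16, 3 rose without KC_Epo 2, and 1 fell without KC_Epo 1. Of 13 exosome and Ski complex genes, 1 rose and 0 fell (0 and 3 with library sizes only, and 2 rose by DESeq2). It was Exosc5 at 0.41 ± 0.10 (edgeR adjusted p = 0.00927), a core subunit that did not pass with library sizes only (0.25).

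Among 18 other tested proteins that bind AU-rich or stem-loop elements, 0 rose and 1 fell. The one that fell was Zc3h12c, a relative of Regnase-1 outside the naming rule because of its low level, at 5.23, 4.28 and 3.69 CPM in KC_EV, against 2.89, 0.998 and 1.55 CPM in KC_Epo (log2 fold change -1.27 ± 0.36, edgeR adjusted p = 0.0191). The number that fell was 10 with library sizes only, 3 with upper-quartile factors, 2 without KC_EV 3 and 0 without KC_EV 1, KC_EV 2 or KC_Epo 3. The number that rose was 1 by DESeq2 and without KC_EV 1, KC_Epo 1 or KC_Epo 2. Rc3h2, the close relative of Roquin-1, was at -0.25 ± 0.10 and did not pass (edgeR adjusted p = 0.0646). It was chosen after its values were seen.

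Upstream of tristetraprolin, 2 of 19 tested kinase genes rose and 1 fell, but with library sizes only 1 rose and 6 fell. Map2k3, a kinase that activates p38, rose from 49.8, 41.5 and 47.8 CPM to 64.5, 64.5 and 62.8 CPM, a log2 fold change of 0.46 ± 0.08 (edgeR adjusted p = 0.00125). Mapk11, the beta form of p38, fell from 20.5, 25.4 and 25.9 CPM to 16.97, 12.1 and 13.3 CPM, at -0.76 ± 0.14 (edgeR adjusted p = 0.00197). Map3k8, the kinase Tpl2, was at 0.25 ± 0.07 (edgeR adjusted p = 0.0145) and did not pass without KC_EV 2 (0.22), with upper-quartile factors (0.18) or with library sizes only (0.088). The number that rose was 1 without KC_EV 2 or with upper-quartile factors and 4 without KC_Epo 1. Mapk14, the alpha form of p38, was at 0.03 ± 0.09 and Mapkapk2, which encodes MK2, at -0.084 ± 0.08, and neither passed, though Mapkapk2 did with library sizes only (-0.24). Phosphorylation was not measured.

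The other phosphatases of the DUSP family split. Of 9 tested, 3 rose and 4 fell. Dusp2, a nuclear phosphatase of activated immune cells, fell from 115, 119.8 and 119 CPM in KC_EV to 53.2, 59.9 and 54.6 CPM in KC_Epo (log2 fold change -1.08 ± 0.07, edgeR adjusted p = 9.95e-07). Dusp10, which acts on p38 and JNK as DUSP1 does, fell from 38.1, 43.3 and 43.4 CPM to 20.5, 19.98 and 19.0 CPM, at -1.07 ± 0.09 (edgeR adjusted p = 6.67e-06). Dusp7 and Dusp3 rose by 0.50 ± 0.08 and 0.38 ± 0.07 on the log2 scale. Without KC_Epo 3 the number that fell was 2.

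The mRNAs that are widely described as carrying AU-rich elements went both ways. Of 24 tested outside the 8 genes, 11 fell, 6 rose and 7 passed in neither direction, with a median log2 fold change of -0.42 against -0.0045 for all genes. Il1b, the precursor of interleukin 1 beta, fell from 471, 424 and 449 CPM to 191, 176 and 183 CPM, at -1.29 ± 0.07 (edgeR adjusted p = 3.38e-07). Ptgs2, the inducible cyclooxygenase, fell from 25.7, 26.7 and 24.3 CPM to 7.58, 6.18 and 8.57 CPM, at -1.78 ± 0.14 (edgeR adjusted p = 2.44e-06). Ccl4, a chemokine, was at -1.26 ± 0.08, and Il10, an anti-inflammatory cytokine, at -0.44 ± 0.11 (edgeR adjusted p = 0.0112), the latter not past the threshold without KC_EV 1 (-0.37).

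The chemokines Ccl7 and Ccl2 went up within the same list. Ccl7 rose from 27.7, 26.5 and 29.6 CPM in KC_EV to 57.6, 69.3 and 68.5 CPM in KC_Epo (log2 fold change 1.22 ± 0.09, edgeR adjusted p = 2.41e-06). Ccl2 rose from 86.1, 79.3 and 78.8 CPM to 122, 173 and 148 CPM, at 0.86 ± 0.12 (edgeR adjusted p = 0.000424). Il6 rose from 17.6, 17.5 and 17.1 CPM to 21.3, 24.6 and 22.7 CPM, at 0.40 ± 0.10 (edgeR adjusted p = 0.012), and did not pass with library sizes only (0.24). Cxcl2, with 4 nonamers in 734 bases of 3′ UTR, was at 69.8, 72.5 and 79.5 CPM in KC_EV, against 49.9, 67.7 and 61.7 CPM in KC_Epo. Its log2 fold change of -0.31 ± 0.11 (edgeR adjusted p = 0.0445) passed by little and did not hold in 5 of 6 fits with 1 library left out (-0.345 to -0.19 in these 5), the exception being the fit without KC_Epo 2 (-0.40). It was lost in the non-robust fit and in limma-voom too (adjusted p = 0.0597 and 0.0558). Il1b, Ccl4, Ccl7, Ccl2, Il6 and Il10 had 0 nonamers by the transcripts used, and Ptgs2 had 1. All held the shorter pentamer ATTTA, in 4, 2, 2, 1, 6, 6 and 14 copies in that order. The median number among genes of like 3′ UTR length was 1 for Il10, 4 for Ptgs2 and 0 for the others.

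Of 16 tested mRNAs described as stem-loop targets of Regnase-1 or Roquin, 6 fell, 4 rose (2 with library sizes only) and 6 passed in neither direction, with a median of -0.069. Il1b, Ptgs2, Cxcl2, Il6, Ier3, Il12b, Cxcl1 and Cxcl3 are on both target lists, so the counts of the lists share these genes. Other lists given here share genes too. Fos and Ier3 are AU-rich targets also counted as immediate early genes, and Btg2 is on the deadenylation and immediate early lists. Nfkbia is on the TNF signalling and glucocorticoid lists. Tfrc, the transferrin receptor, rose from 149, 126 and 132 CPM to 296, 253 and 277 CPM, at 1.02 ± 0.09 (edgeR adjusted p = 5.12e-06). Rel, an NF-kB subunit, fell by 0.69 on the log2 scale (edgeR adjusted p = 4.15e-05).

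**Figure D3:**
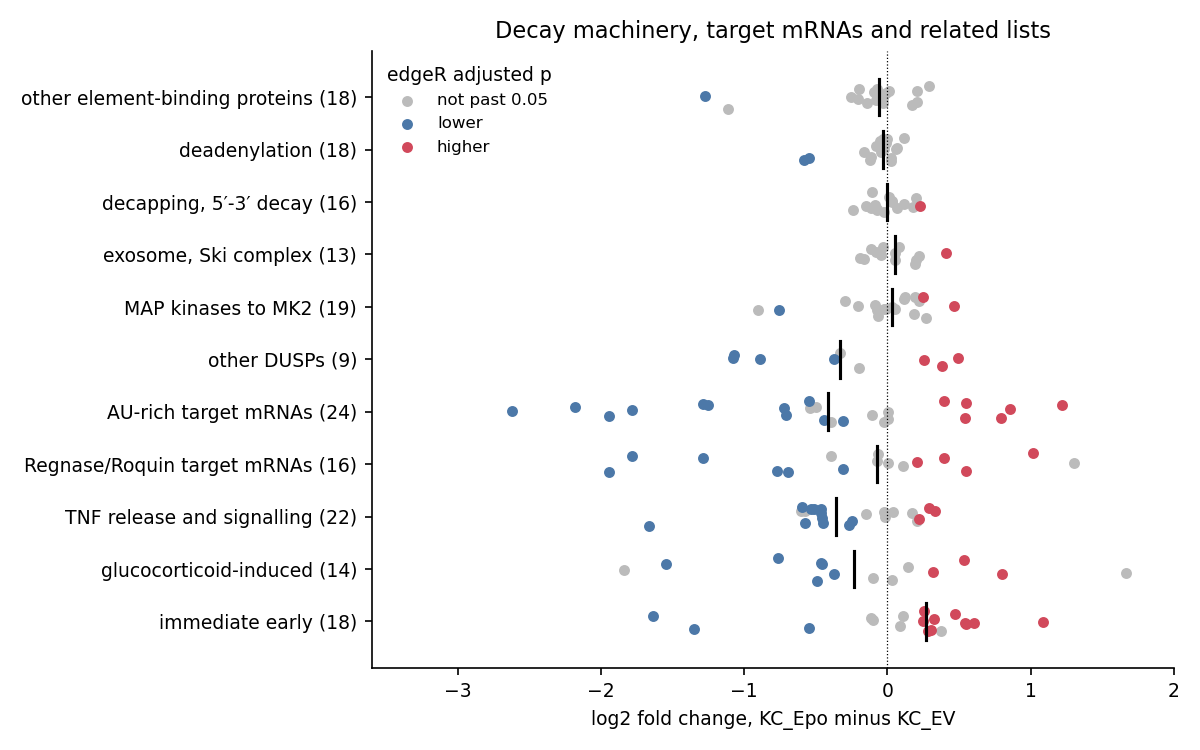
Log2 fold change (KC_Epo minus KC_EV) of each tested gene in 11 lists, with the number tested in brackets, the median as a black bar and colour for genes past an edgeR adjusted p of 0.05; vertical scatter within a list is only for legibility. Most genes of the 4 lists of decay machinery and binding proteins lie near 0, with Zc3h12c the lowest at -1.27, while target mRNAs, DUSPs and TNF signalling genes spread to both sides.

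Nonamers were also counted over all genes. Of 12589 tested genes with a 3′ UTR of at least 50 bases, 883 held 1 nonamer or more, and 17.2% of these rose and 16.99% fell. The shares were 17.1% and 15.3% for the 11706 genes with none. Of the 107 genes with exactly 2 nonamers 17.8% rose and 23.4% fell, and of the 63 with 3 or more 19.0% rose and 14.3% fell. These shares were not tested against each other. The median log2 fold change was -0.041 with and -0.0011 without a nonamer, and with 3 or more it was -0.055. Genes with nonamers had longer 3′ UTRs, with a median of 2122 against 894 bases. The 301 genes with the exact stem-loop letters were called in 32.2% of cases, against 32.6% of all with such a 3′ UTR.

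**Figure D4:**
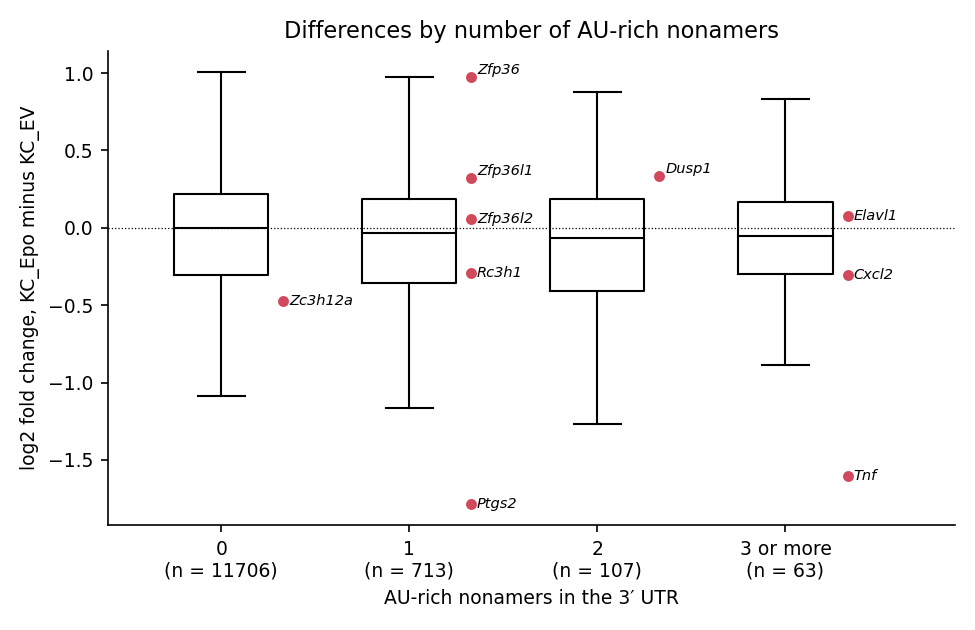
Log2 fold change (KC_Epo minus KC_EV) of tested genes by the number of TTATTTATT nonamers in the 3′ UTR; boxes give the quartiles, whiskers reach to at most 1.5 times the box height, and points beyond are not drawn. Red points are the 8 genes with Cxcl2 and Ptgs2: Tnf lies below the whisker of its class, while Elavl1, in the same class, lies near 0.

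Release and signalling of TNF were read next. Of 22 tested genes 11 fell and 3 rose, with a median of -0.36. The NF-kB subunit genes Nfkb1 and Relb fell by 0.58 and 0.53 on the log2 scale, and Tnfaip3, the feedback inhibitor A20, fell by 0.51 (edgeR adjusted p = 4.51e-05, 0.000304 and 0.000157). Birc2, which encodes the ubiquitin ligase cIAP1 of the TNF receptor complex, was at -0.59 ± 0.09. Adam17, the protease that sheds TNF from the cell surface, was at 0.18 ± 0.07 and did not pass (edgeR adjusted p = 0.0604), but passed by DESeq2 (0.18, adjusted p = 0.031) and without KC_EV 1 (0.2). Tnfrsf1a, a TNF receptor, was at 0.22 ± 0.08 (edgeR adjusted p = 0.0399), did not pass with upper-quartile factors (0.16) or library sizes only (0.064), and passed without KC_Epo 1 alone among the 6 libraries left out in turn (0.18 to 0.29). Tnfrsf1b, the other receptor, was at -0.015 ± 0.08 and did not pass. The number that rose was 1 without KC_EV 2 and 0 with library sizes only.

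Zfp36 and Dusp1 are also induced by glucocorticoids and by tissue dissociation, so genes of both responses were counted beside them. Of 14 tested glucocorticoid genes, 3 rose and 6 fell, with a median of -0.24. Fkbp5, a chaperone partner of the receptor, rose from 62.9, 56.0 and 61.0 CPM to 92.2, 114 and 107 CPM, at 0.80 ± 0.09 (edgeR adjusted p = 4.15e-05), whereas Anxa1 fell by 1.54 and Errfi1 by 0.77 on the log2 scale. The receptor gene Nr3c1 was at 0.031 ± 0.08 and did not pass. The number that rose was 1 without KC_EV 2 or KC_Epo 3 or with library sizes only. Of 18 immediate early and dissociation genes, 10 rose and 3 fell, with a median of 0.27. Fosb, an AP-1 subunit, rose from 279, 305 and 306 CPM to 502, 739 and 653 CPM, at 1.09 ± 0.13 (edgeR adjusted p = 0.000298). Hspa1a and Hspa1b, near-identical heat shock genes that can share reads, fell by 1.35 and 1.63. The summed level of the 18 genes was 7883 to 8971 CPM in KC_EV and 8205 to 8742 CPM in KC_Epo. That sum holds Hspa1a and Hspa1b, with means of 1194 and 1419 CPM in KC_EV against 469 and 457 CPM in KC_Epo. It therefore does not show that the other genes of the list were at a like level in both groups. The number that rose was 6 without KC_Epo 3 and 5 with library sizes only. The part of sample handling in the levels of Zfp36 and Dusp1 was not tested.

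Markers of other cells that can supply Tnf or the decay factors were read in the same libraries. Of 10 monocyte markers 3 rose and 2 fell, and their sum was 453 to 564 CPM in KC_EV and 509 to 724 CPM in KC_Epo. Of 8 tested neutrophil markers 1 fell, with sums of 263 to 429 and 271 to 329 CPM. Most of these sums was Csf3r, with means of 250 and 269 CPM. Other neutrophil transcripts were uneven within KC_EV: S100a9 was at 2.24, 34.7 and 68.2 CPM in KC_EV 1 to 3, against 9.83, 10.7 and 8.84 CPM in KC_Epo 1 to 3. Of 9 dendritic cell markers 5 fell and 1 rose, with sums of 206 to 229 and 199 to 206 CPM. Much of these sums was Clec9a, with means of 67.8 and 69.0 CPM, and Clec10a, the one that rose, with 55.2 and 88.4 CPM. The 5 that fell had log2 fold changes from -3.01 (Xcr1) to -1.05 (Cd209a), so the sums do not show their level. T and NK cell markers summed to 81.9 to 99.4 and 66.4 to 92.3 CPM, with 1 of 10 lower, and B and plasma cell markers to 175 to 195 and 206 to 211 CPM, with 2 of 7 higher. Sinusoidal endothelial markers fell in 10 of 13 cases and hepatocyte markers rose in 7 of 10. Stellate cell and fibroblast markers summed to 111 to 121 and 29.2 to 66.6 CPM, with 3 of 8 lower, and cholangiocyte markers to 37.3 to 69.8 and 11.6 to 23.8 CPM, with 3 of 6 lower. The only marker at 0 counts in a whole group was the erythroid gene Epb42, in KC_EV. Within KC_Epo the hepatocyte sum ranged from 5805 to 20253 CPM, Tnf from 46.7 to 49.4 CPM and Dusp1 from 755 to 772 CPM. The 3 Zfp36 family genes ran in the opposite order to that sum over these libraries, with Zfp36 from 2278 to 2690 CPM. Such values within 1 group do not bear on the difference between the groups. The part of other cells in the difference of Tnf between the groups was not tested.

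The genes whose levels over the 6 libraries were most like Tnf, by Pearson's r of log2 CPM among 10108 genes at 5 CPM or more, were Ccnd1 (r = 0.999), Slamf8, Gmfg, Serpina3g and Marcksl1 (r = 0.998 for the last). For Zfp36 they included Slc45a4, Snn, Plod1 and Apoe, with r from 0.999 to 0.998. An r above 0.95 was reached by 467 and 821 genes. The 2 groups alone give most of such a likeness, and it is a description without a test.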

How the data were processed

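Kupffer cell mRNA was measured in 6 libraries, 3 per group. Libraries were stranded (TruSeq) and made from polyA RNA, per the labels' protocols. GRCm39 is the build in the submitters' processing notes, which list the tools HTSeq 0.11.2, STAR 2.7.3a, Bowtie2 2.5.1 and FastQC 0.11.8 without saying what each did or whether counting used strand. The deposited values are whole-number read counts per gene symbol, not normalized by the authors. For 12 duplicated symbols, the better counted row was the one used under that name.

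The test was that of edgeR 4.0.16 (R 4.3.3), with TMM factors, filterByExpr, a robust quasi-likelihood fit without a block, a two-sided F test and Benjamini-Hochberg adjustment over 13120 genes. Standard errors came from the F statistic. The procedure was tested on simulated counts. No library was a copy of another: chi-square per gene was at least 6.15 for each pair within a group. The alternatives were 3 other scalings, TMM without hepatocyte, erythroid and endothelial markers, other filters, a non-robust fit, a replicate block, DESeq2 1.42.0, limma-voom (limma 3.58.1) and each library left out.

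The members, lists and tests were chosen with earlier results of these data known. Named genes were the 8 members, up to 4 genes per list with the smallest adjusted p past 0.05 at 5 CPM or more in the higher group, Nr3c1, Mapk14, Mapkapk2, Il6, Il1b, Il10, Ccl2, Cxcl2, Adam17, Tnfrsf1a and Tnfrsf1b in every case, and the 5 genes most like Tnf and Zfp36, of which 1 is not reported here. Promoters (RefSeq) matched 7 of 8 members by symbol.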

Additional observations from a re-analysis of the deposited data

How the results depend on the processing

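With library sizes only, the median log2 fold change of all genes moved from -0.0045 to -0.16, the calls over all genes from 2219 higher and 2015 lower to 1193 and 3616, and those among 175 list genes from 29 and 39 to 13 and 73. Under the same setting Tnf was at -1.76, Zfp36 at 0.81, Zfp36l1 at 0.16, Zfp36l2 at -0.11, Zc3h12a at -0.63, Rc3h1 at -0.45, Dusp1 at 0.18 and Elavl1 at -0.081. Higher genes made up 24.8% of calls there, 40.6% with upper-quartile factors and 52.4% with TMM. Dusp1 was at 0.28 with upper-quartile factors. Over the 16 alternatives Tnf, Zfp36, Zfp36l1, Zc3h12a, Rc3h1 and Dusp1 kept their sign.

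Leaving out 1 library gave 2728 to 4557 calls over all genes, 1477 to 2410 higher and 1251 to 2147 lower, and 19 to 32 list genes higher; the lowest counts came without KC_Epo 3. Of 38 named genes outside the members, 26 kept direction and call in every setting. The sign changed for Nr3c1 (-0.032 with upper-quartile factors, -0.13 with library sizes only, -0.0042 to 0.094 with 1 library left out), Mapk14 (-0.032 and -0.13 with the same scalings, -0.077 to 0.12 with 1 library left out) and Tnfrsf1b (-0.076 to 0.048 with 1 library left out), none of which had passed. The causes were not tested.

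With the replicate number as a replicate block, 3358 genes were called. Deviations of same-numbered libraries correlated at -0.11, -0.15 and -0.041, and no library correlated best with its own number. With 3 libraries per group the deviations depend on each other, so these values cannot decide whether the numbers pair the libraries. Il10 (adjusted p = 0.0573) and Tnfrsf1a (adjusted p = 0.067) did not pass in that edgeR fit.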
